A study of Mus musculus with 32 samples.

Results

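The genes described here are 9 oncogenes that are recurrently amplified in human ovarian carcinoma: the transcription factors Myc, Mycn and Mycl, the receptor tyrosine kinases Met and Egfr, the cyclin Ccne1, and the neighbours Yap1, Birc2 and Birc3. They were found by gene symbol among the 55450 genes of the count table, and all 9 were present and passed the filter on low counts. RNA was measured by bulk sequencing in 32 mouse libraries, of which 26 are tumours and 6 are normal reproductive tract. The tumours come from 4 models of high-grade serous carcinoma that all carry floxed Brca1 (Brca1 fl/fl) and one copy of the transgene K18GT121 (Tg/+), a fragment of SV40 large T antigen that inactivates the Rb family of proteins. OSE-BPR tumours (FVB strain, Trp53 fl/fl, 3 primary and 5 allograft) were started by Cre adenovirus injected beneath the bursa of the ovary. Ad-BPR tumours (C57Bl/6, Trp53 fl/fl, 2 primary and 4 allograft) were started by Cre adenovirus delivered to the oviduct. Pax8-BPR tumours (C57Bl/6, Trp53 fl/fl, 4 primary and 2 allograft) carried Pax8-CreERT2 (Tg/+) and were induced with tamoxifen. Ovgp1-BPR tumours (C57Bl/6, 3 primary and 3 allograft) carried Ovgp1-CreERT2 (Tg/+) with tamoxifen, and their sample labels give Trp53 KozR172H ki/+, whereas the series text also names a floxed Trp53 allele for this model. The normal libraries are ovary (3) and oviduct (3) of the same 3 wild-type C57Bl/6 females. Primary tumours are called GEMM (genetically engineered mouse model) below, and Ad-BPR, Pax8-BPR and Ovgp1-BPR are called the oviduct-origin models. OSE-BPR is the only model on FVB, so strain and model cannot be told apart in any comparison with it, and the labels do not say which tumours the allografts came from or give the age of the mice.

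Gene amplification is a gain of extra copies of a chromosome stretch, and RNA of the genes on it usually, though not always, rises with copy number. MYC proteins pair with MAX to drive genes for growth and ribosome making, MET and EGFR pass growth factor signals to the RAS and PI3K pathways, and cyclin E1 activates CDK2 at entry into S phase. YAP1 is the transcriptional co-activator held back by the Hippo kinases, and cIAP1 and cIAP2, the products of Birc2 and Birc3, are ubiquitin ligases that restrain cell death and non-canonical NF-kB signalling. In human tumours the Yap1, Birc2 and Birc3 orthologues lie side by side and can be gained together. Only RNA was measured here, so no value below is a DNA copy number.

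Library totals ran from 13987123 to 20514825 expected counts (median 17426862). Levels are given in CPM (counts per 1000000) after scaling by TMM (trimmed mean of M values), except summed marker levels, which are CPM without it. Of the engineered genes, Trp53 stood at 8.4 to 15.7 CPM in OSE-BPR, 14.7 to 21.1 in Ad-BPR, 13 to 43 in Pax8-BPR and 101 to 157 in Ovgp1-BPR tumours, against 83.4 to 120 in the normal libraries. Brca1 stood at 17.1 to 70.6 CPM in the tumours and 2.03 to 22.5 in the normal libraries, and gene totals do not separate the floxed exons from the rest. Epithelial markers (8 of 8 with counts) were present in every model, with a summed level of 1970 to 4250 CPM in OSE-BPR, 5260 to 9260 in Ad-BPR, 2290 to 9940 in Pax8-BPR and 567 to 4520 in Ovgp1-BPR tumours. Normal oviduct libraries 1 and 3 held granulosa, theca and luteal cell markers at 1980 and 1100 CPM, against 113 CPM in oviduct 2 and 14400 to 16200 CPM in the ovaries. The labels do not say that the tumours of a group came from separate animals, so the p-values may not measure the spread between animals. In such bulk RNA, fewer cells of a type and less RNA per cell cannot be told apart.

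No oncogene had a single tumour that stood clear of all others. A member was counted when its highest tumour was at least 2-fold above the next tumour, above all 6 normal libraries and at least 1 CPM. This held for 0 of the 9, against 5.69% of the 20887 genes tested. None had a tumour at least 4-fold above the tumour median either, where 33.7% of genes did, and Egfr came closest at 3.73-fold. None had its second highest tumour at least 2-fold above the third, as 2.84% of genes did. With a 1.5-fold gap the count was 2, Ccne1 (32.4 CPM in Pax8-BPR allograft 2 against 20.7 in the next tumour) and Birc3 (97.9 CPM in Pax8-BPR GEMM 4 against 62.6). Asked within each model alone, 1 member met the 2-fold gap, Mycn in Pax8-BPR GEMM 2, against 17.2% of genes. For low levels a rule without a gap was used. Mycn, Egfr and Birc3 each had a tumour at least 4-fold below the tumour median and below every normal library, as did 18.8% of genes. The lowest tumour was 7.77-fold under the next for Mycn, but 1.79-fold for Egfr and 1.36-fold for Birc3.

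**Figure D1:**
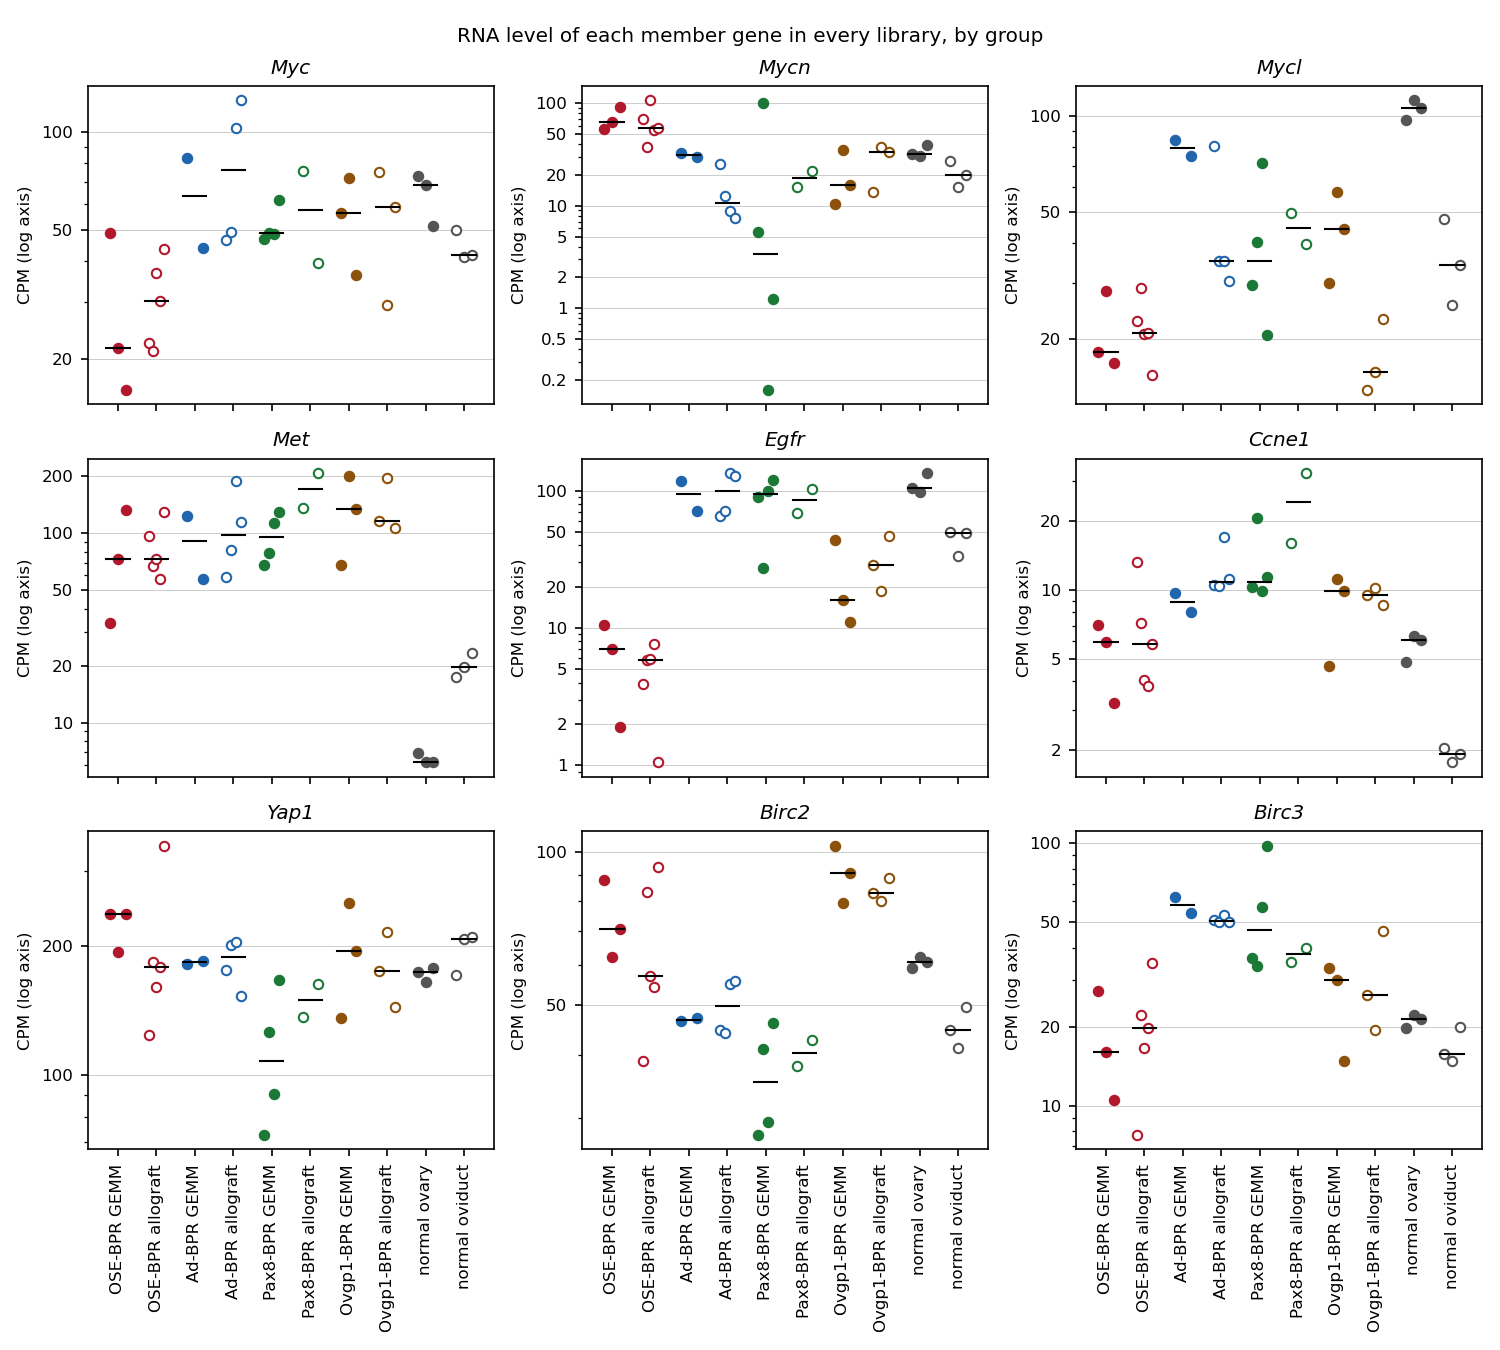
CPM of each of the 9 oncogenes (log axis, 1 panel per gene) in every library, grouped by model and normal tissue; filled points are GEMM or ovary, open points allograft or oviduct, and the black line is the group median. Met lies above all normal libraries in all 26 tumours, Egfr in the 8 OSE-BPR tumours lies below all other tumours, and Mycn has 1 high tumour (100 CPM) among the 6 Pax8-BPR tumours.

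Myc, on chromosome 15 (chr15:61985391-61990374, GRCm38, plus strand), was lowest in OSE-BPR tumours and near the normal range in the other models. OSE-BPR tumours held 16.1 to 48.9 CPM. Levels were 43.9 to 125 CPM in Ad-BPR, 39.4 to 75.9 in Pax8-BPR and 29.4 to 75.4 in Ovgp1-BPR tumours. Normal ovary held 73.1, 68.8 and 51.3 CPM and normal oviduct 49.9, 41.3 and 41.7 CPM. Thus 5 of 26 tumours exceeded every normal library and 9 lay below every one, and the highest, Ad-BPR allografts 4 (125 CPM) and 3 (103 CPM), came from the same group. Allografts of OSE-BPR averaged 30.8 CPM against 64.4 CPM in oviduct-origin allografts, a difference that passed the test (log2 difference -1.04 ± 0.33 SE, adjusted p = 0.017, edgeR quasi-likelihood test, as for all calls below). A gene is called when its p-value, adjusted over all genes, is under 0.05. In the GEMM tumours the same comparison gave -0.97 ± 0.40 and missed the threshold (adjusted p = 0.077), and the GEMM difference minus the allograft difference was itself not called (0.08 ± 0.49, adjusted p = 1). Against their normal tissues, neither OSE-BPR GEMM tumours (-1.16 ± 0.43, adjusted p = 0.051) nor oviduct-origin GEMM tumours (0.35 ± 0.35, adjusted p = 0.47) differed by the test.

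Mycn, the family member named for its amplification in neuroblastoma, varied most widely among the 3. It lies on chromosome 12 (chr12:12936093-12941914, minus strand). The RefSeq promoter of Mycn (GRCm38.p6, chr12:12941787-12942086, minus strand, 250 bases before to 50 after the start) is shown because it held the only E2F words among the members' promoters, and the E2F factors are what the Rb family holds back. The words searched, on both strands, were TTTCCCGC, TTTCGCGC, TTTGCCGC and TTTGGCGC, found in 2.26% of 32851 promoters of this length. Capitals mark 3 matches that begin 183, 179 and 168 bases before the start, the first 2 of which overlap on opposite strands.
Mycn: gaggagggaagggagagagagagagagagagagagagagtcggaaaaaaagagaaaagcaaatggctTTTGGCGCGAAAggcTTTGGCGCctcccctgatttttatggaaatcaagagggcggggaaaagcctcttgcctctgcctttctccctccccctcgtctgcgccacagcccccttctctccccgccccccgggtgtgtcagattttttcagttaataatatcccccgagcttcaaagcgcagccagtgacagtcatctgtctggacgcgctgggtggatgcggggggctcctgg
A match is a description of letters and not of a factor bound there. The RefSeq table gave a promoter for 8 of the 9 genes, Myc not among them, and for Birc2 it gave 2.

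OSE-BPR GEMM tumours held 56.4, 65.3 and 93.1 CPM of Mycn, and OSE-BPR allografts 70.0, 37.5, 107, 55.6 and 57.3 CPM. In Ad-BPR the range was 7.6 to 32.9 CPM and in Ovgp1-BPR 10.5 to 37.6 CPM. Normal ovary held 32.4, 30.5 and 39.1 CPM and normal oviduct 27.3, 15.1 and 20.1 CPM. OSE-BPR was the high model, with 7 of 8 tumours above every normal library. Pax8-BPR was split: its GEMM tumours held 5.58, 100, 0.159 and 1.24 CPM and its allografts 15.4 and 21.9 CPM. Tumour 2 thus lay 4.58-fold above the next tumour of its model, while tumour 3, at 3 counts in the whole library, was the lowest of all 26. The comparisons of OSE-BPR with the oviduct-origin models gave no call. OSE-BPR GEMM tumours averaged 71.6 CPM against 26.3 CPM in oviduct-origin GEMM tumours (log2 difference 1.46 ± 0.86, adjusted p = 0.22), and the allografts 65.4 against 20.2 CPM (1.76 ± 0.76, adjusted p = 0.072).

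Mycl, first found amplified in lung cancer, was a gene of normal ovary more than of any tumour group. It lies on chromosome 4 (chr4:122995652-123002485, plus strand). Normal ovary held 97.5, 112 and 106 CPM, and all 26 tumours lay below all 3 of these libraries. OSE-BPR tumours held 15.5 to 28.9 CPM, Ad-BPR 30.5 to 84.0, Pax8-BPR 20.7 to 71.3 and Ovgp1-BPR 13.9 to 57.8 CPM. In OSE-BPR GEMM tumours Mycl was 4.97-fold lower than in ovary (21.2 against 105 CPM, log2 difference -2.31 ± 0.40, adjusted p = 0.00023). Granulosa, theca and luteal cell markers summed to 14400 to 16200 CPM in ovary and to 111 to 308 CPM in the OSE-BPR GEMM tumours. The part of these cells in this or any other difference from ovary was not tested. Oviduct-origin GEMM tumours averaged 54.7 CPM against 35.8 CPM in oviduct, which was not called (0.55 ± 0.32, adjusted p = 0.19), and the test of the difference between these effects passed (-2.86 ± 0.52, adjusted p = 0.00062). Mycl was lowest in oviduct 2 (25.7 CPM), the oviduct library with the lowest ovarian cell markers (113 CPM). The part of ovarian cells in the oviduct level was not tested. Mycl was also lower in OSE-BPR than in oviduct-origin GEMM tumours (-1.30 ± 0.36, adjusted p = 0.012), a call that was lost without OSE-BPR GEMM 3 (-1.16). Within the oviduct-origin models it was lower in Ovgp1-BPR than in Ad-BPR and Pax8-BPR tumours (30.9 against 52.5 CPM, -0.86 ± 0.26, adjusted p = 0.012). That call was lost when limma was run on log2(TPM + 1) (-0.56).

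Compared per transcript length, in TPM (transcripts per 1000000), the leading MYC gene differed between the models. This comparison was chosen after the values were seen. Mycn stood above Myc in 7 of 8 OSE-BPR tumours, in 1 of 18 oviduct-origin tumours and in 0 of 6 normal libraries. The 1 exception in OSE-BPR was GEMM 1, with 42.5 TPM of Mycn and 44.5 TPM of Myc. The 1 oviduct-origin tumour was Pax8-BPR GEMM 2, with 71.6 TPM of Mycn and 40.9 TPM of Myc. Mycn made up 43.5 to 74.6% (median 53.6%) of the summed TPM of the 3 genes in OSE-BPR, 4.49 to 21.7% (median 14.1%) in Ad-BPR, 0.197 to 53.0% (median 8.69%) in Pax8-BPR and 10.5 to 42.9% (median 18.1%) in Ovgp1-BPR tumours. The sum itself overlapped, at 65.8 to 123 TPM (median 90.0) in OSE-BPR and 46.9 to 139 TPM (median 88.5) in oviduct-origin tumours. Normal ovary, where Mycl alone gave 50.1, 57.0 and 56.4 TPM, summed to 125 to 132 TPM, and normal oviduct to 56.5 to 79.9 TPM.

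**Figure D2:**
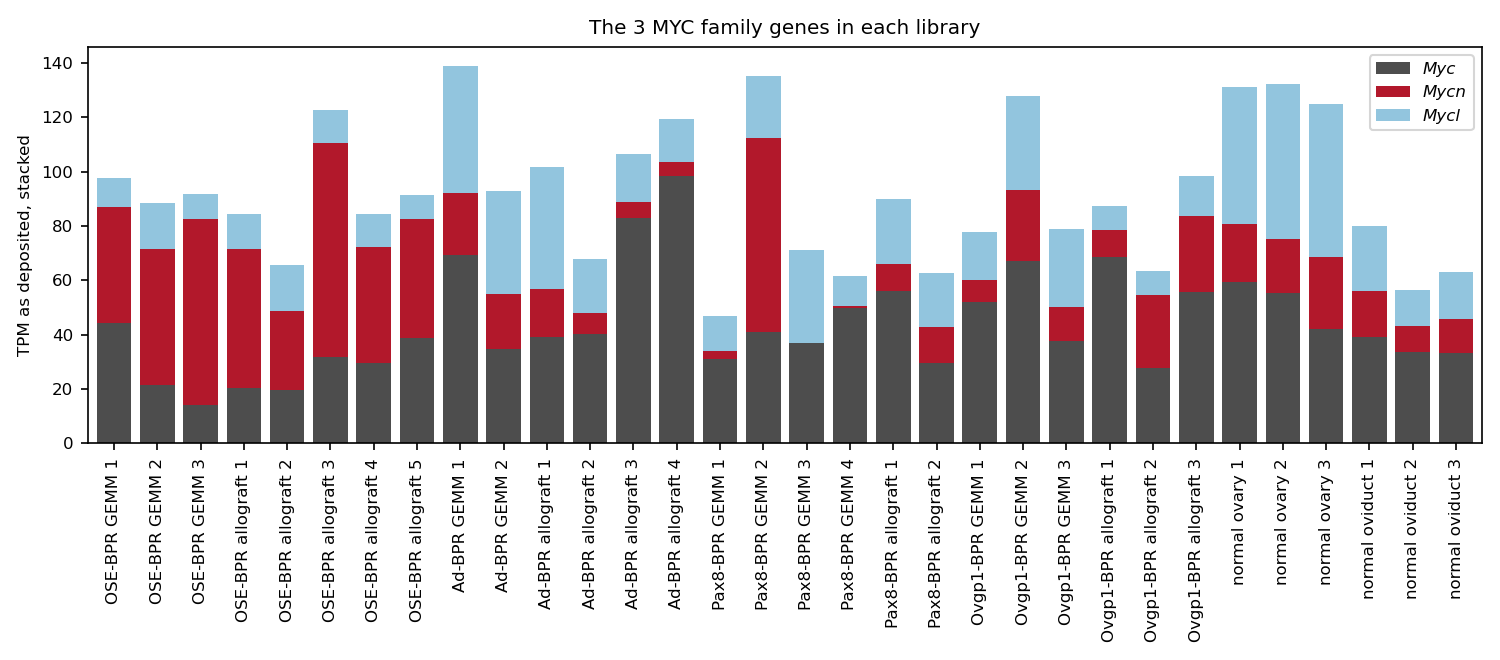
Stacked bars of Myc, Mycn and Mycl in TPM for each of the 32 libraries, ordered by group. Mycn exceeds Myc in 7 of the 8 OSE-BPR tumours (median of the 8: 53.6% of the sum) and in Pax8-BPR GEMM 2, while Mycl is large in normal ovary.

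The partners and antagonists of MYC, which compete for MAX or bind the same sites, were listed as 10 genes. In OSE-BPR GEMM tumours 3 of 10 were higher than in ovary and 0 lower, where 23.2% of all genes were called, and the list median log2 difference was 0.62 against 0 over all genes. Among them were the MYC antagonists Mxi1 (150 against 45 CPM, 1.74 ± 0.27, adjusted p = 7.9e-05) and Mxd3 (12 against 4.79 CPM, 1.32 ± 0.38, adjusted p = 0.014). In oviduct-origin GEMM tumours 3 of 10 were higher than in oviduct and 2 lower, where 35.7% of all genes were called. Mxd3 was again among the higher (17.8 against 1.69 CPM, 3.27 ± 0.38, adjusted p = 4.3e-07). Of 21 genes of ribosome making and growth that MYC is known to drive, 0 were higher and 5 lower in OSE-BPR GEMM tumours than in ovary. The list median was -0.15, and 23.2% of all genes were called there (11.6% higher, 11.6% lower). One of the 5 was the ribosome assembly factor Nop16, at 10.8 against 28.3 CPM (-1.39 ± 0.27, adjusted p = 0.00064). In oviduct-origin GEMM tumours 5 of the 21 were higher and 0 lower than in oviduct (list median 0.11 against -0.04 over all genes). There 35.7% of all genes were called (14.8% higher, 20.9% lower). The polyamine enzyme Odc1 was one of the 5, at 288 against 122 CPM (1.17 ± 0.31, adjusted p = 0.0053).

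The genes beside Mycn were read because copy gains span neighbours. Within 1 Mb of it lie 3 tested protein-coding genes: Ddx1, an RNA helicase gene known to be gained with MYCN in neuroblastoma, Nbas, a trafficking gene first found in the same amplified stretch, and Fam49a. Their median reached a log2 value of 2.5 over the tumour median (5.64-fold) in OSE-BPR allograft 3, and 0.91 in the next tumour, OSE-BPR GEMM 1. Around 8.88% of 16437 genes with such neighbours, some tumour had a median of at least 2-fold. The individual genes below were chosen after their values were seen. Ddx1 stood at 615 CPM in OSE-BPR allograft 3, against 58.3 to 167 CPM in the other 25 tumours and 96.7 to 121 CPM in the normal libraries. Nbas stood at 167 CPM there and at most 59.2 CPM in any other tumour. Fam49a stood at 151 CPM and at most 56.9 CPM elsewhere. Mycn itself, at 107 CPM, was the highest of the 26 but only 1.86-fold above the median of the other OSE-BPR tumours, where Ddx1 was 5.23-fold, Fam49a 4.41-fold and Nbas 4.18-fold above theirs.

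**Figure D3:**
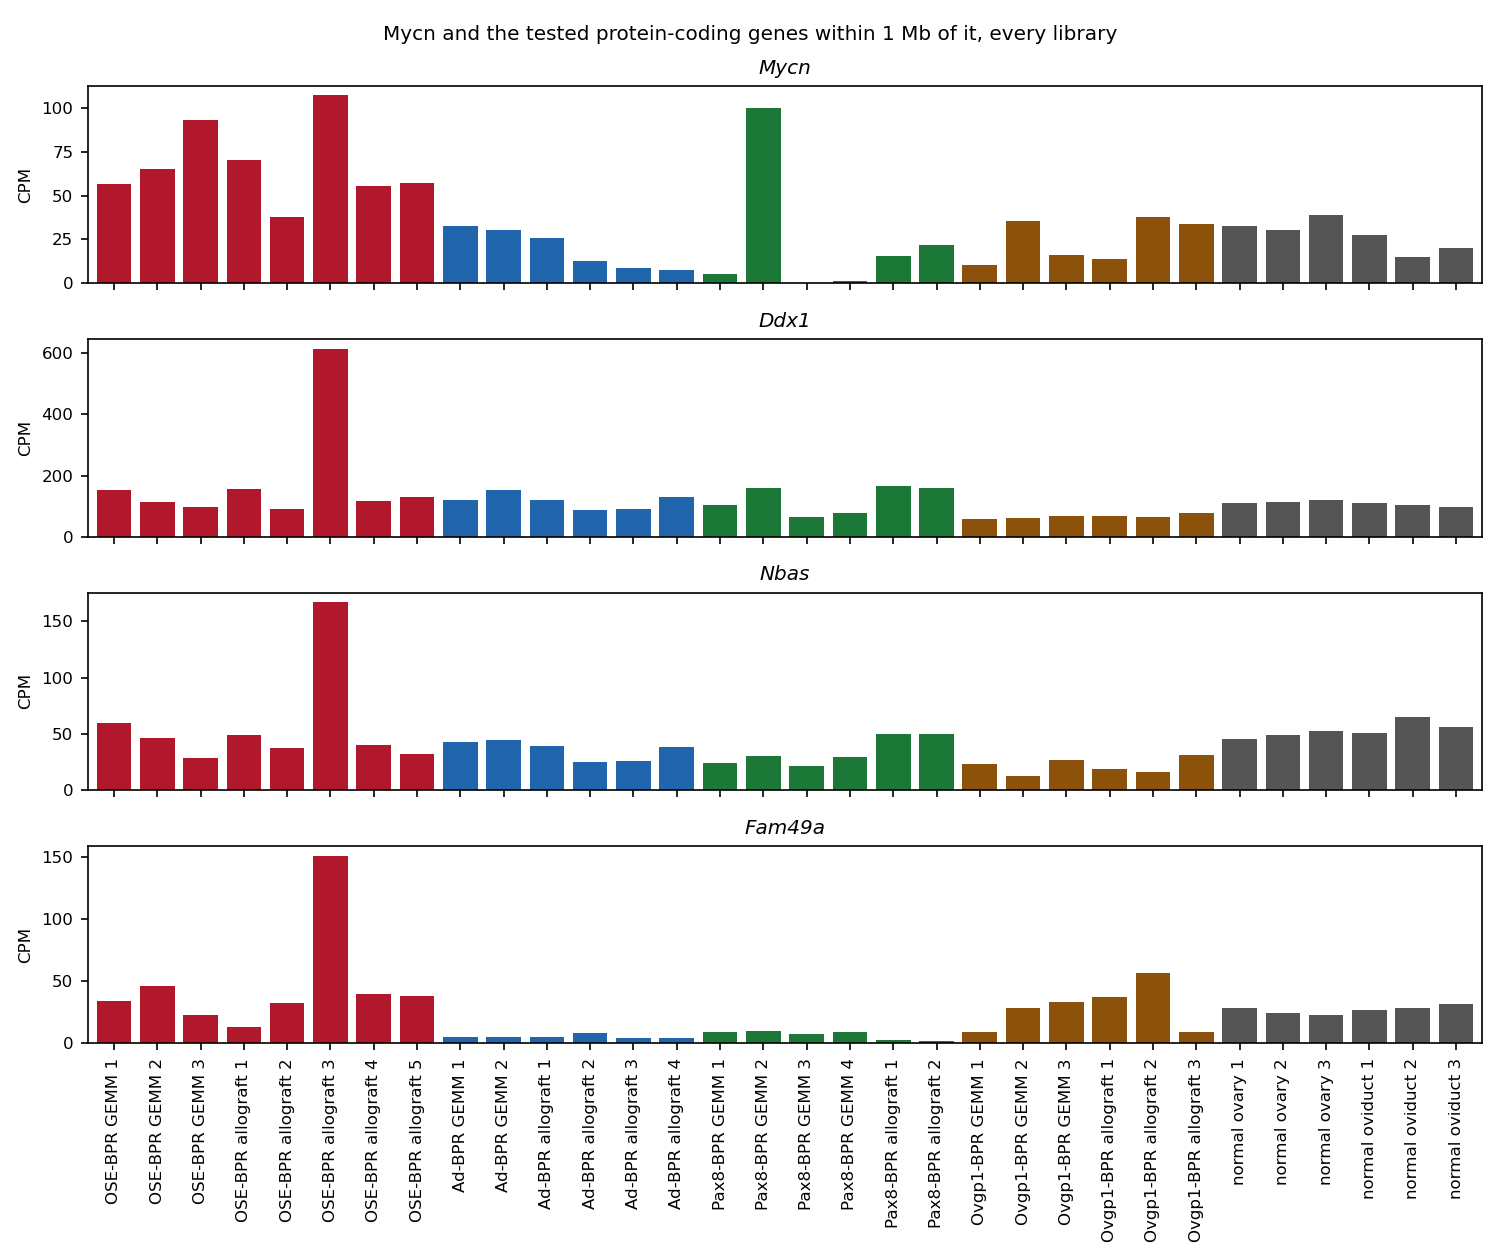
CPM of Mycn, Ddx1, Nbas and Fam49a (1 panel each, linear axis from 0) in every library. OSE-BPR allograft 3 is the highest bar in all 4 panels, with Ddx1 at 615 CPM. Pax8-BPR GEMM 2 is high for Mycn (100 CPM), and its Ddx1 (158 CPM) is near that of the Pax8-BPR allografts (167 and 158 CPM).

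The high stretch in OSE-BPR allograft 3 extended to both sides. On one side Smc6, a subunit of the SMC5/6 complex, stood at 378 CPM (4.31-fold over the median of the other OSE-BPR tumours), and Gen1, a Holliday junction resolvase gene 1.7 Mb from Mycn, at 63.2 CPM (4.42-fold). Next outward on that side, Rdh14 was at 1.17-fold. On the other side Fam84a was 10.7-fold and Pqlc3, at 4.05 Mb, 3.88-fold above the other OSE-BPR tumours, but Trib2, between them at 2.86 Mb, was at 0.478-fold. Of 27 tested genes within 5 Mb of Mycn, itself included, this tumour was the highest of the 26 in 13 (48.1%), against 3.58% of all genes. Windows of this width with at least 20 genes in which 1 tumour led at least 40% made up 2.30% of 12939. A narrower search was then made with the stretch already known. Within 2 Mb, 5 of 7 genes (Gen1, Smc6, Fam49a, Ddx1 and Nbas) were at least 2-fold above every other tumour. Only 4 of 13240 windows (0.0302%) held 5 such genes for any tumour, and those 4 were centred on Smc6, Fam49a, Mycn and Ddx1 in this same tumour. The window widths, the shares and the cut of 5 genes were chosen after the values were seen. The 4 windows overlap on the stretch that prompted the search, so their share does not measure how rare such a stretch is.

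Pax8-BPR GEMM 2 had high Mycn, with its nearest neighbours near the level of the other Pax8-BPR tumours and some genes farther out above it. Its Mycn level was 17.9-fold above the median of the other Pax8-BPR tumours, while Ddx1 (158 CPM, 1.53-fold), Nbas (30.4 CPM, 1.05-fold) and Fam49a (9.97 CPM, 1.25-fold) were near theirs. Farther out, log2 values over the same tumours were 4.3 for Fam84a (1.21 Mb), 3.04 for Greb1 (3.73 Mb), 3.11 for Kcnf1 (4.24 Mb, at 2.15 CPM), 1.2 for E2f6 and 1.15 for Trib2, and Ttc32 was also at least 2-fold above. In all 7 of the 27 genes, Mycn included, were at least 2-fold above, and the median of the 27 was 0.54. In OSE-BPR allograft 3 the same values were 13 of 27 and 0.9, and Pax8-BPR allograft 2, with 21.9 CPM of Mycn, had 9 of 27 and 0.78. Pax8-BPR GEMM 2 was the highest tumour for 2 of the 27 genes, Fam84a (91.0 CPM) among them. That library also had the lowest summed epithelial markers of the Pax8-BPR tumours (2290 CPM), and the part of cell makeup in its Mycn level was not tested. The Pax8-BPR tumours with the least Mycn showed lower neighbours: the median of the 27 genes over the other tumours of the model was -0.95 in GEMM 3 and -0.71 in GEMM 4, against -0.43 to 0.9 in the other 24 tumours.

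**Figure D4:**
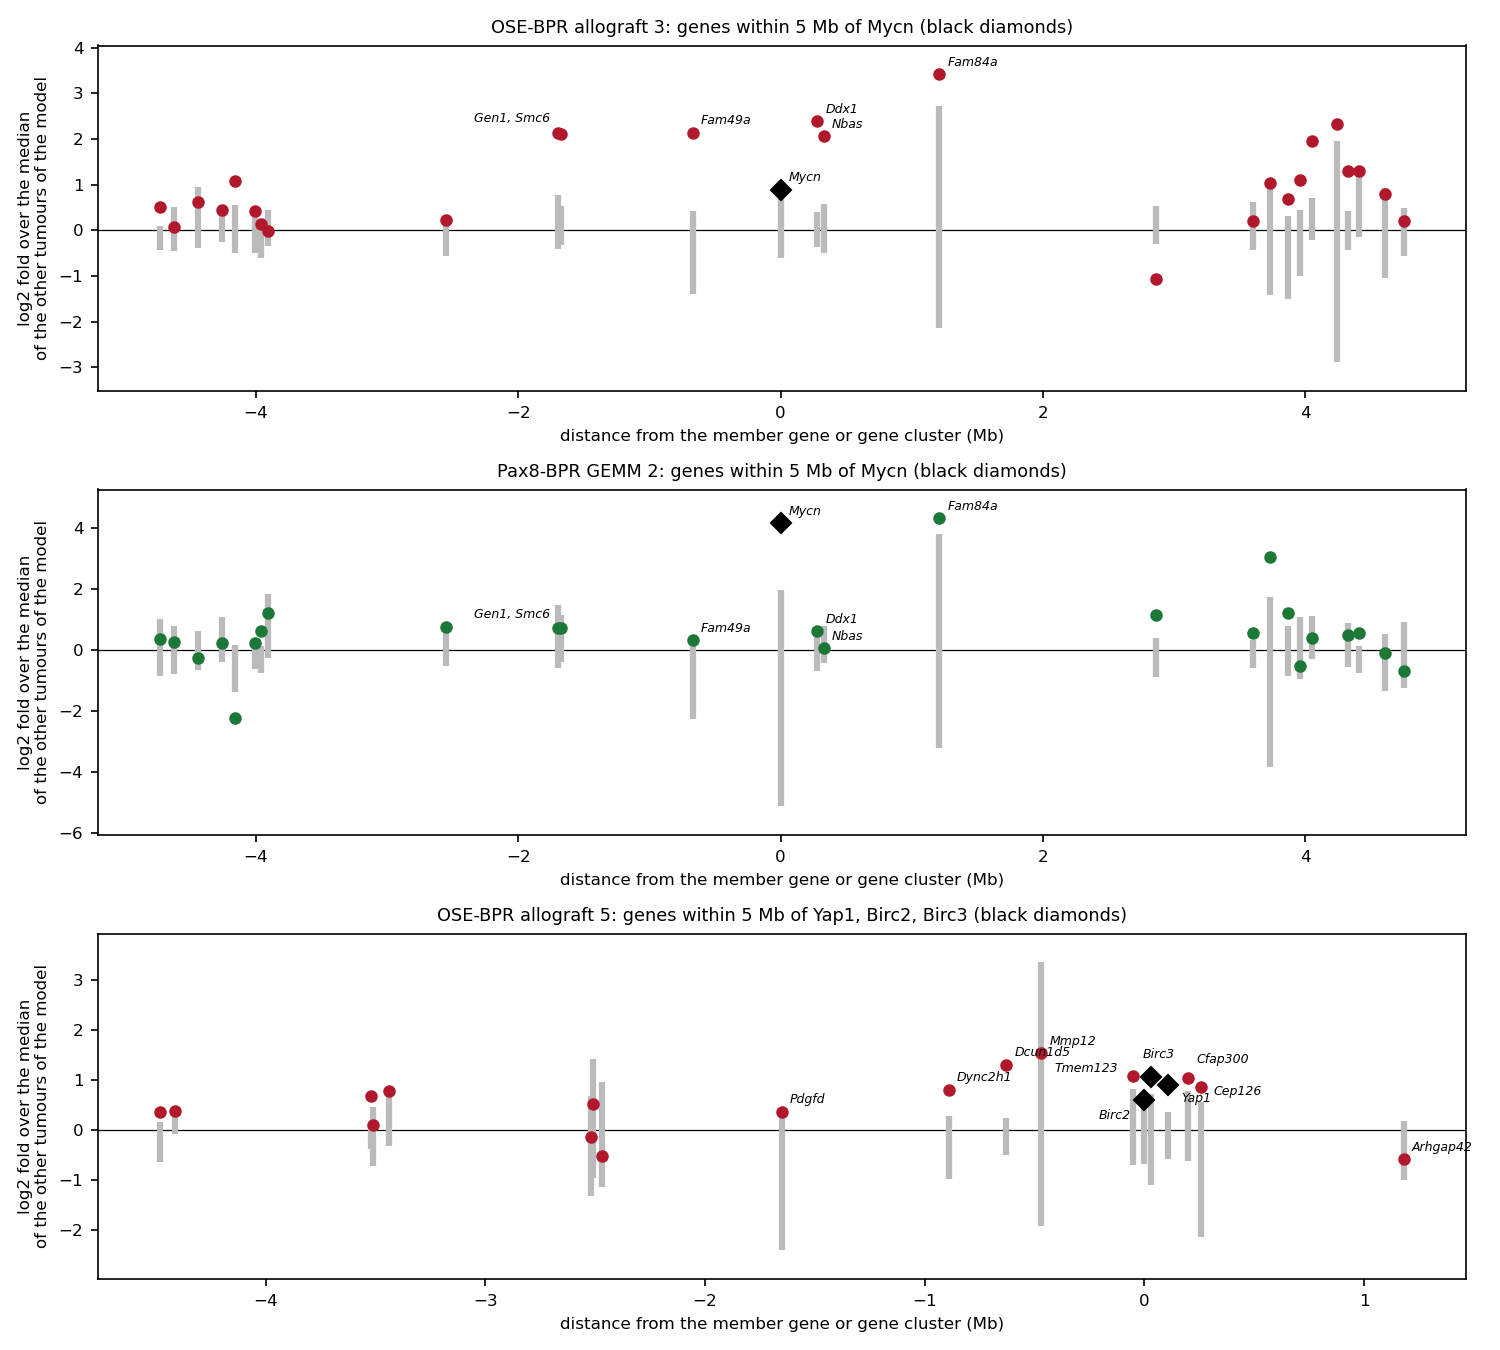
Log2 fold of 1 tumour over the median of the other tumours of its model for genes along 5 Mb to each side of Mycn (OSE-BPR allograft 3 and Pax8-BPR GEMM 2) and of the Yap1, Birc2 and Birc3 cluster (OSE-BPR allograft 5), against distance in Mb; black diamonds are the oncogenes, grey bars run from the lowest to the highest of the other tumours, and genes under a model median of 1 CPM are left out. The points around Mycn lie high on both sides in OSE-BPR allograft 3 (Ddx1 at 5.23-fold) and mixed in Pax8-BPR GEMM 2, where Mycn and Fam84a are high but Ddx1 (1.53-fold), Nbas and Fam49a are not.

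Met, the receptor for hepatocyte growth factor, was the one oncogene higher in every tumour than in every normal library, a pattern met by 1.54% of genes. It lies on chromosome 6 (chr6:17463800-17573980, plus strand). Normal ovary held 6.93, 6.17 and 6.19 CPM and normal oviduct 17.5, 19.7 and 23.3 CPM. Tumours ran from 33.4 CPM (OSE-BPR GEMM 1) through a median of 109 to 208 CPM (Pax8-BPR allograft 2). No tumour stood apart, since Ovgp1-BPR GEMM 2 followed at 201 CPM. Met was 12.4-fold higher in OSE-BPR GEMM tumours than in ovary (79.6 against 6.43 CPM, log2 difference 3.63 ± 0.51, adjusted p = 2.9e-05). In oviduct-origin GEMM tumours it was 5.24-fold higher than in oviduct (107 against 20.2 CPM, 2.39 ± 0.44, adjusted p = 0.00015). These effects were not shown to differ (1.24 ± 0.59, adjusted p = 0.17). Between OSE-BPR and oviduct-origin tumours Met was not called in GEMM (-0.41 ± 0.42, adjusted p = 0.49) or allograft (-0.70 ± 0.35, adjusted p = 0.12). Epithelial markers summed to 71.5 to 118 CPM in ovary, 1730 to 2060 CPM in oviduct and 567 to 9940 CPM in the tumours, and their part in the Met difference was not tested.

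Its RefSeq promoter (GRCm38.p6, chr6:17463707-17464006, plus strand) is shown as that of the member higher in all tumours. Of the motifs searched it held 1, the E-box CACGTG that MYC and MAX can bind (in capitals, beginning 126 bases before the start), which 7.15% of promoters hold.
Met: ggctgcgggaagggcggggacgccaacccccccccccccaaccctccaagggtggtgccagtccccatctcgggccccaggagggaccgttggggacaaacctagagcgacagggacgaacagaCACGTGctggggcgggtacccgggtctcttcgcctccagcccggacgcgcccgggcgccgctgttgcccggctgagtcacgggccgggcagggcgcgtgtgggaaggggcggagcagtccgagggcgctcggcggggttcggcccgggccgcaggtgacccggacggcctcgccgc

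Of 11 other genes of HGF and MET signalling, 6 were higher and 1 lower in OSE-BPR GEMM tumours than in ovary (list median log2 difference 1.72 against 0 over all genes, of which 23.2% were called). They included St14, the protease matriptase that activates HGF (28.7 against 1.72 CPM, 4.05 ± 1.45, adjusted p = 0.044), and Spint1, its inhibitor (10.4 against 0.745 CPM, 3.78 ± 1.19, adjusted p = 0.023). In oviduct-origin GEMM tumours 2 were higher and 1 lower than in oviduct (list median 0.07), where 35.7% of all genes were called. Of the 2, Gab1, the docking protein of activated MET, was at 110 against 55.1 CPM (0.77 ± 0.19, adjusted p = 0.0031). Between Ovgp1-BPR and the Ad-BPR and Pax8-BPR tumours 2 of 10 were higher and 7 lower (list median -1.08), where 42.4% of all genes were called. Between OSE-BPR and oviduct-origin GEMM tumours 2 of 10 were higher and 1 lower, where 26.0% were called. Higher in Ovgp1-BPR were Gab1 (181 against 66.3 CPM, 1.44 ± 0.15, adjusted p = 5e-07) and Mst1r, the sister receptor RON (68.7 against 12.4 CPM, 2.46 ± 0.32, adjusted p = 8e-06). Lower were Hgfac, another HGF-activating protease (1.14 against 42.9 CPM, -5.16 ± 0.69, adjusted p = 9.4e-06), and St14 (65.7 against 681 CPM, -3.53 ± 1.01, adjusted p = 0.0084).

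Egfr, the receptor for EGF and its relatives, had the largest fold of the 9 between OSE-BPR and the oviduct-origin models. It lies on chromosome 11 (chr11:16752203-16918158, plus strand). OSE-BPR GEMM tumours held 10.5, 6.97 and 1.89 CPM, and the allografts 3.9, 5.88, 5.92, 7.66 and 1.05 CPM. Every one of these 8 lay below all 18 oviduct-origin tumours, as did 1.48% of genes. Ad-BPR tumours held 65.6 to 134 CPM, Pax8-BPR 27.4 to 120 and Ovgp1-BPR 11.0 to 46.3 CPM. Normal ovary held 104, 97.8 and 133 CPM, at the level of the highest tumours, and normal oviduct 49.6, 33.2 and 48.8 CPM. Egfr was 17.3-fold lower in OSE-BPR GEMM tumours than in ovary (6.44 against 112 CPM, log2 difference -4.11 ± 0.67, adjusted p = 0.00014). Oviduct-origin GEMM tumours did not differ from oviduct by the test (67.3 against 43.9 CPM, 0.38 ± 0.50, adjusted p = 0.59), and the difference of these effects was called (-4.50 ± 0.83, adjusted p = 0.00083). Egfr was lowest in oviduct 2 (33.2 CPM), the oviduct library with the lowest ovarian cell markers (113 CPM). The part of ovarian cells in the oviduct level was not tested. OSE-BPR lay 8.87-fold below the oviduct-origin models in GEMM (-3.15 ± 0.65, adjusted p = 0.0015) and 13.1-fold below in allografts (4.88 against 71.9 CPM, -3.71 ± 0.53, adjusted p = 3e-05). Ovgp1-BPR lay 3.35-fold below Ad-BPR and Pax8-BPR (27.3 against 90.8 CPM, -1.75 ± 0.43, adjusted p = 0.003).

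Between models, stromal markers ran higher in Ad-BPR and Pax8-BPR, where Egfr was also higher. Fibroblast markers (8 of 8 with counts) summed to 256 to 1850 CPM in OSE-BPR, 1060 to 2330 in Ovgp1-BPR, 4700 to 10800 in Pax8-BPR and 7580 to 20400 in Ad-BPR tumours. Macrophage markers (8 of 8) summed to 60.5 to 294, 148 to 993, 530 to 1710 and 577 to 1260 CPM in the same order. Epithelial markers were also lower in OSE-BPR than in Ad-BPR tumours, with no overlap. Within models the fibroblast order differed. In Ad-BPR the tumour with the least Egfr (allograft 1, 65.6 CPM) had the highest fibroblast sum (20400 CPM). So did that of Pax8-BPR (GEMM 2, 27.4 CPM, sum 10800 CPM). In OSE-BPR and Ovgp1-BPR the highest fibroblast sum lay with the most Egfr (GEMM 1 and allograft 3). The same 2 tumours had the highest macrophage sums of their models (294 and 993 CPM). In Ad-BPR and Pax8-BPR the highest macrophage sums (allograft 2, 1260 CPM, and GEMM 1, 1710 CPM) did not lie with the most Egfr. The part of stromal and epithelial cells in the Egfr differences was not tested. Within Ovgp1-BPR, the 2 tumours with the most Egfr, allograft 3 (46.3 CPM) and GEMM 1 (43.3 CPM), also had the highest summed epithelial markers.

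Among 14 tested relatives, ligands and feedback genes of EGFR, 1 was higher and 3 lower in OSE-BPR than in oviduct-origin GEMM tumours (list median -0.36 against 0.02 over all genes), near the 26.0% of all genes called. Lower were Errfi1, a feedback inhibitor of the receptor (23.2 against 112 CPM, -2.23 ± 0.28, adjusted p = 1.2e-05), and the ligand Hbegf (2.65 against 20.3 CPM, -2.78 ± 0.55, adjusted p = 0.0012). The ligand Egf was higher (6.18 against 1.52 CPM, 2.15 ± 0.49, adjusted p = 0.0035). In the allografts 2 were higher and 5 lower (list median -0.54), where 37.8% of all genes were called, with the ERK phosphatase Dusp6 among the lower (25.3 against 105 CPM, -1.98 ± 0.42, adjusted p = 0.0011). Against ovary, 3 were higher and 1 lower in OSE-BPR GEMM tumours, where 23.2% were called. Erbb3, the receptor family member that signals through its partners, was among the higher (79.6 against 3.38 CPM, 4.55 ± 0.82, adjusted p = 0.00035). In Ovgp1-BPR against Ad-BPR and Pax8-BPR, 3 were higher and 5 lower, where 42.4% were called, and the lower included Erbb2 (42.8 against 204 CPM, -2.23 ± 0.42, adjusted p = 0.00028).

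Ccne1, on chromosome 7 (chr7:38097984-38107534, minus strand), was raised over oviduct in the oviduct-origin tumours, while in OSE-BPR no difference from ovary was called. Normal oviduct held 2.04, 1.77 and 1.92 CPM and normal ovary 4.85, 6.29 and 6.08 CPM. Tumours ran from 3.23 CPM (OSE-BPR GEMM 3) through a median of 9.91 to 32.4 CPM, and 20 of 26 exceeded every normal library. The top tumours were both Pax8-BPR, allograft 2 at 32.4 and GEMM 2 at 20.7 CPM, and the other Pax8-BPR tumours held 9.92 to 16.1 CPM. Oviduct-origin GEMM tumours were 5.21-fold above oviduct (10.2 against 1.91 CPM, log2 difference 2.38 ± 0.40, adjusted p = 6.8e-05). Smooth muscle markers summed to 10300 to 12800 CPM in oviduct and to 589 to 1550 CPM in these tumours. The part of cell makeup in this or any other difference from oviduct was not tested. OSE-BPR GEMM tumours averaged 5.40 CPM against 5.74 in ovary (-0.09 ± 0.42, adjusted p = 0.92), and the effects differed (-2.47 ± 0.57, adjusted p = 0.005). In allografts Ccne1 was lower in OSE-BPR than in oviduct-origin tumours (6.82 against 15.3 CPM, -1.05 ± 0.33, adjusted p = 0.016). Without OSE-BPR allograft 3 this call was lost (-0.91).

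Around Ccne1 within 1 Mb, 5 tested neighbours had a median of at most 0.56 on the log2 scale over the tumour median, in Ovgp1-BPR GEMM 2. Pax8-BPR allograft 2, the tumour with the most Ccne1, was the highest of the 26 in 9 of 34 genes within 5 Mb (26.5%, against 8.31% of all genes in that library). Windows in which 1 tumour led at least 25% were 21.8% of all.

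The other genes of cyclin E and CDK2 control were largely higher in oviduct-origin GEMM tumours, 7 of 10 against 0 lower than in oviduct (list median 1.26 against -0.04 over all genes, of which 35.7% were called). The sister cyclin Ccne2 was at 19 against 1.53 CPM (3.48 ± 0.42, adjusted p = 7.7e-07). Ccna2, the cyclin of S phase and G2, was at 145 against 12.9 CPM (3.47 ± 0.39, adjusted p = 2.3e-07). OSE-BPR GEMM tumours had 3 higher and 1 lower than ovary (list median 0.72), where 23.2% were called. Ccna2 was higher (181 against 51.7 CPM, 1.81 ± 0.39, adjusted p = 0.0017), and so was the CDK inhibitor Cdkn1c (182 against 12 CPM, 3.92 ± 1.22, adjusted p = 0.022). Fbxw7, the ubiquitin ligase subunit that marks cyclin E for destruction, was lower (26.5 against 52.7 CPM, -0.99 ± 0.33, adjusted p = 0.031).

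Yap1, Birc2 and Birc3 lie side by side on the minus strand of chromosome 9, Birc2 at chr9:7818227-7837064, Birc3 at chr9:7848699-7873186 and Yap1 at chr9:7931999-8004596. In 0 of 26 tumours were all 3 at least 2-fold above their tumour medians, nor at least 1.5-fold. Some tumour met the 2-fold rule for 10.9% of runs of 3 neighbouring genes. The tumour that came closest, OSE-BPR allograft 5, had Yap1 at 1.93-fold, Birc2 at 1.69-fold and Birc3 at 1.01-fold. Birc2 and Birc3 share 65 of their 50-base words (1.81% and 1.47% of each), and their expected counts were not whole in 30 and 31 libraries, so part of their reads was divided between similar genes. The counts of the other 7 members were whole in every library.

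Yap1 had the most counts of the 3 and was called in none of the comparisons among tumours or with normal tissue. OSE-BPR GEMM tumours held 237, 194 and 237 CPM, and the allografts 124, 184, 161, 179 and 343 CPM. Ad-BPR tumours held 153 to 205, Pax8-BPR 72.6 to 167 and Ovgp1-BPR 136 to 252 CPM, and the normal libraries 165 to 210 CPM. Tumours fell on both sides of the normals, 5 above all and 10 below all of them. OSE-BPR GEMM tumours were not called against ovary (0.37 ± 0.29, adjusted p = 0.39) nor oviduct-origin GEMM tumours against oviduct (-0.30 ± 0.24, adjusted p = 0.34). The RefSeq promoter of Yap1 (GRCm38.p6, chr9:8004547-8004846, minus strand) is shown because it alone among the members held the TEAD word GGAATG, which 14.7% of promoters hold. In capitals are an E-box CACGTG beginning 163 and the TEAD word beginning 141 bases before the start.
Yap1: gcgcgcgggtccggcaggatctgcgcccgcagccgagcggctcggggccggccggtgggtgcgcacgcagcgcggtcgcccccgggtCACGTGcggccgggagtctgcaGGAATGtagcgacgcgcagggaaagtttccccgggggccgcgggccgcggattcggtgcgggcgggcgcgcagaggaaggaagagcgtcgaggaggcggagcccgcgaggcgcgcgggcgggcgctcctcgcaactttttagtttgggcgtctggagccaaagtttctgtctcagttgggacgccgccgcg
TEAD factors are the DNA-binding partners of YAP1. The NF-kB consensus, held by 4.51% of promoters, was in none of the members' windows, Birc3 included.

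Several neighbours of Yap1 were high with it in OSE-BPR allograft 5. These genes were chosen after their values were seen. Yap1 was 1.86-fold above the median of the other OSE-BPR tumours, Birc2 1.51-fold and Birc3 2.1-fold. Dcun1d5 (107 CPM, 2.48-fold), Tmem123 (189 CPM, 2.11-fold), Cfap300 (18.0 CPM, 2.07-fold) and Dync2h1 (68.6 CPM, 1.75-fold) were also above, while Trpc6 (0.463-fold) and Arhgap42 (0.669-fold) were below. This tumour was the highest of the 26 in 7 of 25 genes within 5 Mb (28.0%, against 4.14% of all genes). Windows of this width with at least 20 genes in which 1 tumour led at least 25% were 21.8% of 12939. The highest median over the neighbours within 1 Mb belonged to another tumour, Ad-BPR allograft 2 (log2 value 3.12), in a window that holds the matrix metalloprotease genes, and Yap1 was at 201 CPM there.

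Birc2 separated Ovgp1-BPR from Ad-BPR and Pax8-BPR, but not from OSE-BPR. The 6 Ovgp1-BPR tumours held 103, 79.4, 91.0, 83.0, 80.0 and 89.0 CPM, above all 12 Ad-BPR (44.1 to 55.9 CPM) and Pax8-BPR (27.8 to 46.1 CPM) tumours, as did 5.04% of genes. OSE-BPR tumours held 38.9 to 93.6 CPM, which overlaps the Ovgp1-BPR range, ovary 59.1, 62.1 and 60.9 CPM and oviduct 44.7, 41.2 and 49.6 CPM. The Ovgp1-BPR level was 2.03-fold that of Ad-BPR and Pax8-BPR (87.6 against 43.3 CPM, log2 difference 1.02 ± 0.16, adjusted p = 4.7e-05). No call was made against normal tissue in OSE-BPR (0.28 ± 0.24, adjusted p = 0.43) or oviduct-origin GEMM tumours (0.25 ± 0.20, adjusted p = 0.35).

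Birc3 ran the other way. Ovgp1-BPR tumours held 14.8 to 46.2 CPM, Ad-BPR 50 to 62.6, Pax8-BPR 34.1 to 97.9 and OSE-BPR 7.74 to 34.9 CPM. Normal ovary held 19.8, 22.1 and 21.4 CPM and oviduct 15.7, 14.8 and 20.0 CPM. Oviduct-origin GEMM tumours were 2.62-fold above oviduct (47 against 16.8 CPM, log2 difference 1.39 ± 0.38, adjusted p = 0.0063), while OSE-BPR GEMM tumours were not called against ovary (-0.23 ± 0.43, adjusted p = 0.74). The difference of these effects missed the threshold (-1.63 ± 0.57, adjusted p = 0.057). Without the 2 oviduct libraries that hold ovarian markers the rise over oviduct was 1.56 and was not called, with 1 oviduct library left. Birc3 was lower in OSE-BPR than in oviduct-origin tumours, in GEMM (17.9 against 47 CPM, -1.30 ± 0.41, adjusted p = 0.026) and in allografts (20.2 against 39.8 CPM, -0.94 ± 0.33, adjusted p = 0.03), and lower in Ovgp1-BPR than in Ad-BPR and Pax8-BPR (28.4 against 50.9 CPM, -0.83 ± 0.30, adjusted p = 0.031).

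These 3 Birc3 calls were near the threshold. The first was lost without OSE-BPR GEMM 2 (-1.22) or 3 (-1.03). The second was lost without OSE-BPR allograft 1 (-0.74), 3 (-0.88) or 4 (-0.93) or Ovgp1-BPR allograft 3 (-0.86). The third was lost without Ad-BPR GEMM 1 (-0.82), Pax8-BPR allograft 2 (-0.82), Ovgp1-BPR GEMM 3 (-0.69) or Ovgp1-BPR allografts 1 (-0.79) or 2 (-0.72). Between models, the fibroblast and macrophage levels given with Egfr also ran higher in Ad-BPR and Pax8-BPR, where Birc3 was higher. Within models the fibroblast order differed. Pax8-BPR GEMM 4 and Ad-BPR GEMM 1, with the most Birc3 of their models, had the lowest fibroblast sums there (4700 and 7580 CPM). Ovgp1-BPR allograft 3 was the highest of its model in Birc3 and in the fibroblast sum, and also in the macrophage sum (993 CPM). In the other models the highest macrophage sum did not lie with the most Birc3. The part of these cells in the Birc3 differences was not tested.

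In Hippo signalling, 3 of 18 genes were higher and 0 lower in OSE-BPR GEMM tumours than in ovary (list median 0.05 against 0 over all genes). Of all genes 23.2% were called there (11.6% higher). Wwtr1, the YAP1 relative TAZ, was at 383 against 109 CPM (1.81 ± 0.33, adjusted p = 4e-04). Oviduct-origin GEMM tumours had 5 higher and 1 lower than oviduct (list median 0.44), near the 35.7% of all genes called, with the angiomotin gene Amot at 98.9 against 26.1 CPM (1.77 ± 0.49, adjusted p = 0.0062). Of 12 genes known as YAP targets, 6 were higher and 0 lower there (list median 1.25), where 35.7% of all genes were called, including Ankrd1 (29.8 against 0.613 CPM, 5.28 ± 1.47, adjusted p = 0.0067). In OSE-BPR GEMM tumours 3 of 12 were higher and 0 lower than in ovary, where 23.2% of all genes were called (11.6% higher), with the stress gene Gadd45b at 80.4 against 14.2 CPM (2.50 ± 0.50, adjusted p = 0.00092). Ovgp1-BPR held more of the partner Tead1 than Ad-BPR and Pax8-BPR (300 against 123 CPM, 1.29 ± 0.13, adjusted p = 5.5e-07) and more Wwtr1 (315 against 134 CPM, 1.27 ± 0.21, adjusted p = 0.00011). It held less of the angiomotin-like gene Amotl1 (67.3 against 249 CPM, -1.84 ± 0.27, adjusted p = 3.2e-05).

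Of the inhibitors of apoptosis and NF-kB genes, 13 of 20 were higher and 1 lower in oviduct-origin GEMM tumours than in oviduct (list median 0.82 against -0.04 over all genes, of which 35.7% were called). Macrophage markers summed to 212 to 283 CPM in oviduct and to 148 to 1710 CPM in these tumours (577 to 1710 CPM in Ad-BPR and Pax8-BPR), and their part in this count was not tested. Tnfaip3, the NF-kB feedback inhibitor A20, was at 47.6 against 6.99 CPM (2.75 ± 0.44, adjusted p = 3.2e-05). Birc5, the mitotic relative survivin, was at 51.5 against 6.66 CPM (2.92 ± 0.39, adjusted p = 2.9e-06). OSE-BPR GEMM tumours had 3 of 20 higher and 1 lower than ovary (list median 0.49), near the 23.2% of all genes called, with the adaptor Traf1 at 21.8 against 4.02 CPM (2.44 ± 0.54, adjusted p = 0.0021). Between OSE-BPR and oviduct-origin tumours 0 were higher, and 3 were lower in GEMM and 4 in allografts. Of all genes 26.0% and 37.8% were called there (11.1% and 17.4% lower). Tnfaip3 was lower in both (GEMM 13.3 against 47.6 CPM, -1.82 ± 0.43, adjusted p = 0.0046), and the non-canonical NF-kB subunit Nfkb2 was lower in allografts (73.1 against 141 CPM, -0.90 ± 0.25, adjusted p = 0.0074). Traf3, which works with cIAP1 and cIAP2 to hold back that pathway, was lower in Ovgp1-BPR than in Ad-BPR and Pax8-BPR (53 against 112 CPM, -1.06 ± 0.13, adjusted p = 5.2e-06).

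Around the remaining members no tumour's neighbours within 1 Mb reached a 2-fold median: the highest log2 values were 0.21 for Mycl, 0.60 for Met (Ad-BPR GEMM 1) and 0.39 for Egfr (OSE-BPR allograft 1). Myc had no tested protein-coding neighbour in that range. Over 5 Mb, Ovgp1-BPR allograft 2 was the highest tumour in 11 of 22 genes around Met (against 5.69% of its genes overall), with Met itself at 195 CPM. OSE-BPR allograft 1 was the highest in 10 of 28 genes around Egfr (35.7%, against 5.3%), yet its Egfr level was 3.9 CPM. In 2.30% of such windows with at least 20 genes 1 tumour led at least 40%, as around Met. In 21.8% 1 tumour led at least 25%, as around Egfr. Around Myc and Mycl the leading tumours held 5 of 30 (16.7%) and 9 of 99 (9.09%).

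Counted over comparisons, 3 or 4 of the 9 oncogenes were called each time that groups of tumours were set against normal tissue or another model. OSE-BPR GEMM tumours against ovary gave 3 of 9 (1 higher, 2 lower), where 23.2% of genes were called (11.6% higher, 11.6% lower). Oviduct-origin GEMM tumours against oviduct gave 3 of 9, all higher, where 35.7% were called (14.8% higher, 20.9% lower). The test of the difference between these effects gave 3 of 9, where 13.8% were called (8.03% higher, 5.78% lower), and all 3 were lower in OSE-BPR. OSE-BPR against oviduct-origin tumours gave 3 of 9 in GEMM, where 26.0% of genes were called (14.9% higher, 11.1% lower). In allografts it gave 4 of 9, where 37.8% were called (20.4% higher, 17.4% lower). All of these members were lower in OSE-BPR. Ovgp1-BPR against Ad-BPR and Pax8-BPR gave 4 of 9, 1 higher and 3 lower, where 42.4% were called (22.7% higher, 19.7% lower). Several of these comparisons share libraries.

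Between allografts and GEMM tumours, averaged over the 4 models, 0 of 9 were called by edgeR, as were 0 of 20000 genes, with 1210 genes at an unadjusted p under 0.05. DESeq2 called 34 genes and limma on log2(TPM + 1) called 0. Mycl had the smallest unadjusted p of the 9 (log2 difference -0.49 ± 0.20, adjusted p = 0.8), followed by Ccne1 (0.46 ± 0.23, adjusted p = 0.82). The test of whether the gap between OSE-BPR and oviduct-origin tumours differed between GEMM and allograft called 0 genes, with 443 at an unadjusted p under 0.05 (edgeR, the one tool run). For Egfr the GEMM difference minus the allograft difference was 0.57 ± 0.70, the gap being the wider in allografts.

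**Figure D5:**
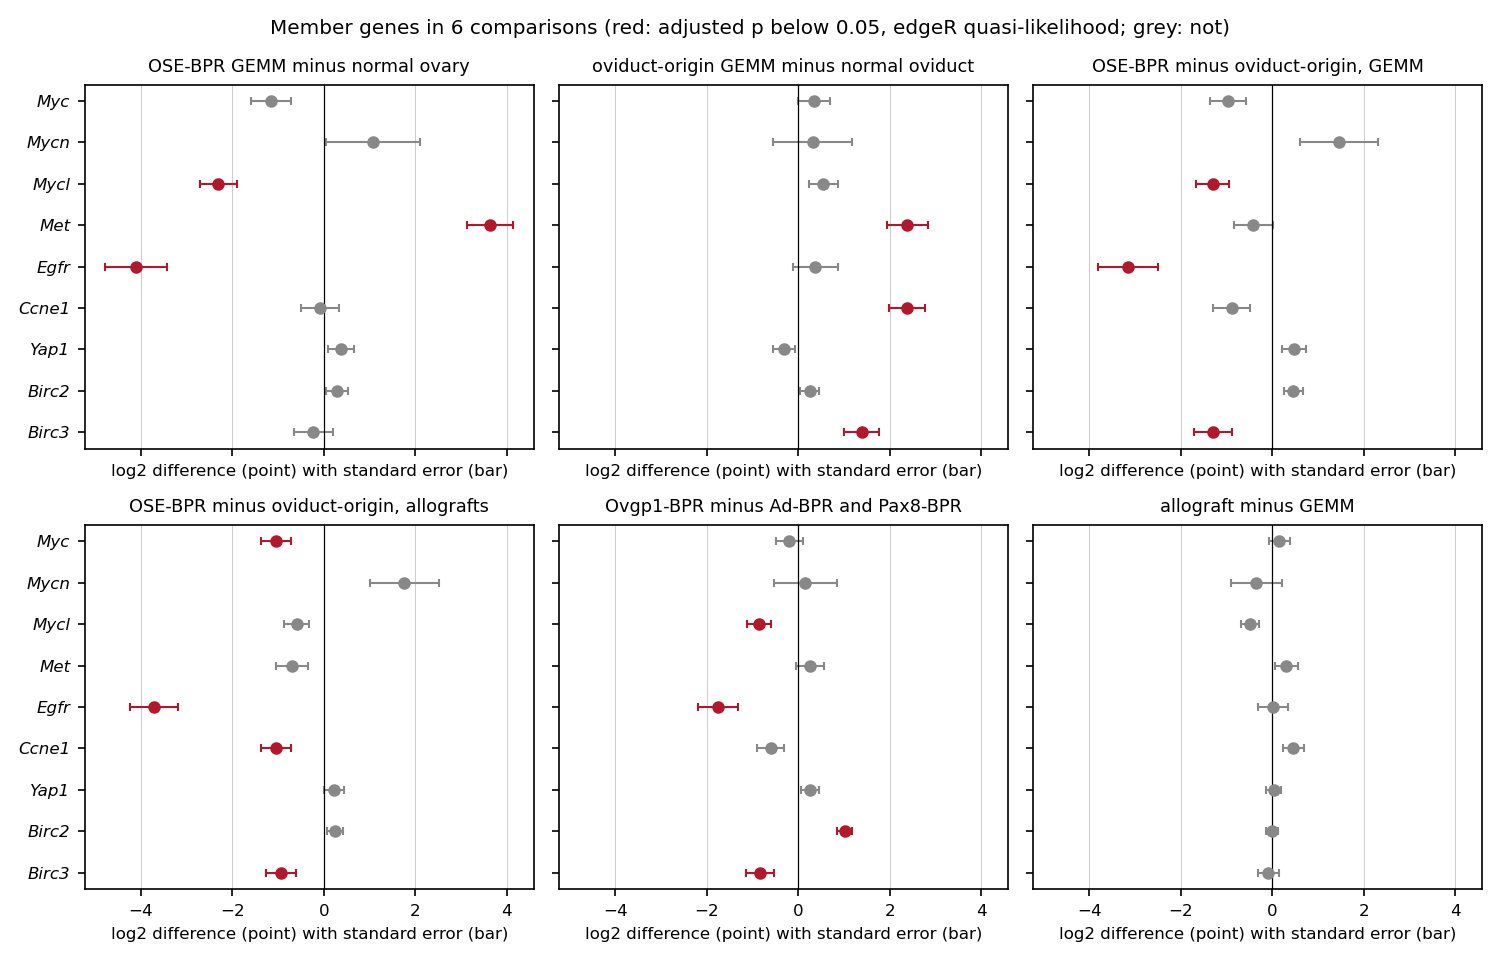
Log2 difference ± SE of the 9 oncogenes in 6 comparisons (1 panel each, 0 marked), with red points passing an adjusted p of 0.05. Met is red and above 0 against both normal tissues, Egfr is red and below 0 in OSE-BPR against ovary (-4.11) and against the oviduct-origin tumours (-3.15 in GEMM).

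Between the normal organs themselves 8 of the 9 differed, with 53.0% of 17334 genes called (28.5% higher and 24.5% lower in oviduct). Oviduct held less Mycl (35.8 against 105 CPM, log2 difference -1.47 ± 0.22, adjusted p = 0.0013), Egfr (43.9 against 112 CPM, -1.26 ± 0.19, adjusted p = 0.0014) and Ccne1 (1.91 against 5.74 CPM, -1.50 ± 0.21, adjusted p = 0.0011), and more Met (20.2 against 6.43 CPM, 1.74 ± 0.15, adjusted p = 0.00012). Birc2 was lower in oviduct (45.2 against 60.7 CPM, -0.34 ± 0.09, adjusted p = 0.015). Smaller differences were called for Myc (-0.46), Mycn (-0.62) and Yap1 (0.27), and each of these calls was lost without one or more single libraries. Myc was lost without ovary 1 (-0.37), ovary 2 (-0.42), oviduct 2 (-0.40) or oviduct 3 (-0.41). Mycn and Yap1 were lost without any 1 library but oviduct 1, at -0.43 to -0.72 for Mycn and 0.22 to 0.28 for Yap1. Fitted with the animal as a block, 7 of 9 were called, without Yap1. When all 32 libraries shared 1 spread, 3 of 9 were called (Mycl, Met and Ccne1) and 2605 genes in all.

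Across the 26 tumours the genes most like each member were named by Pearson r of log2 CPM, as a description without a test, since tumours of a model share strain, genotype and cell makeup. Birc3 ran with Ankrd1 (0.93) and the NF-kB feedback genes Zc3h12a (0.91) and Nfkbie (0.91). Myc ran with Tnfaip3 (0.84) and Icam1 (0.84), and Egfr with Sfn (0.95), AA467197 (0.95), Junb (0.94) and B3gnt3 (0.94). Mycn ran with the zinc finger genes Zfp647 (0.85), Zfp354a (0.84) and Zfp2 (0.82), Mycl with Ccdc146 (0.79), Met with Slc25a46 (0.73), and Ccne1 with Gm7332 (0.84), Shkbp1 (0.84) and the replication gene Cdc45 (0.8). Birc2 ran with Kank1 (0.87) and Kank2 (0.87). Among the members, Egfr and Birc3 (0.8), Myc and Birc3 (0.73) and Myc and Egfr (0.7) had high values, and Mycn ran against Egfr (-0.65) and Birc3 (-0.6). The neighbours Yap1 and Birc2 had 0.66, while Birc2 and Birc3 had -0.3.

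Yap1 had more genes of its own chromosome among the most alike than any other member. Its closest genes were Msantd4 (0.84), Alkbh8 (0.81) and Aasdhppt (0.8), which lie near it on chromosome 9. After the mean of each model was taken out, a choice made after the data were seen, 21 of its 50 most alike genes were on chromosome 9 (42.0%, against 5.69% of all genes). Of these, 8 were within 10 Mb (16.0%, against 0.34%): Aasdhppt, Msantd4, Dync2h1, Dcun1d5, Cwf19l2, Alkbh8, Mtmr2 and Birc2. For Met 12 of 50 were on its own chromosome 6 (24.0%, against 5.26%), and for Mycn 7 of 50 on chromosome 12 (14.0%, against 3.59%). On their own chromosomes Egfr had 9 (18.0%, against 8.05%), Birc2 7 (14.0%, against 5.69%) and Birc3 5 (10.0%, against 5.69%). Mycl had 3 (6.0%, against 6.17%) and Ccne1 2 (4.0%, against 7.69%). Within 10 Mb, Mycn had 4 of 50 (8.0%, against 0.485%), Birc2 3 (6.0%, against 0.34%), Met 2 (4.0%, against 0.321%), Mycl 2 (4.0%, against 1.54%) and Egfr 1 (2.0%, against 0.365%). For Birc3 and Ccne1 that count was 0, and Myc had 0 of 50 on chromosome 15.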

How the data were processed

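RNA of 32 libraries was given as gene tables that the authors deposited as RSEM expected counts and as TPM. Per the submitters' processing notes, the tools included cutadapt 1.18, STAR 2.7.0f, RSEM 1.3.1, bcl2fastq and Picard, on the mouse build mm10. No source used here gives the strandedness. Gene coordinates came from GENCODE M21 (GRCm38), which matched all 55450 gene IDs. Promoters came from RefSeq (GRCm38.p6).

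Expected counts were rounded, filtered with filterByExpr (minimum count 10, minimum total 15) and tested with edgeR 4.0.16 (TMM, quasi-likelihood F test, group means) in R 4.3.3. Separate fits were made for the 6 normal libraries (17334 genes), the 26 tumours (20000 genes) and all 32 (20887 genes). Tumours were compared with each other in the second and with normal tissue in the third. Groups were weighted equally within an arm, in the fit and in the mean CPM printed for an arm, and printed folds come from the fit. P-values were adjusted by Benjamini-Hochberg over all genes tested, with calls at 0.05. A test of differences between effects used the same fits. Log2 CPM for likeness used a prior count of 2. The procedure was tested on simulated data. Alternatives were RLE factors, no filter, DESeq2 1.42.0, limma 3.58.1 on log2(TPM + 1), fits over other sets of libraries, an animal block, and leaving out each library. Descriptions used Python 3.11.15 with pandas 2.3.3 and numpy 2.4.6.

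The normal ovary and oviduct share 3 animals by their titles, so the animal pairs them. The correlations of deviations within animals were -0.084, -0.044 and 0.06. In 39 pairs of libraries of one group, counts differed by more than sampling noise (lowest chi-square per degree of freedom 10.9). Besides the 9 members, the genes named were, per pathway list, direction and comparison, up to 2 called genes with the largest fold, where an arm reached 5 CPM, and up to 5 genes most like each member. Others were chosen after their values were seen. The members and lists were chosen with earlier results of these data known.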

Additional observations from a re-analysis of the deposited data

Results flagged for a closer look

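In a group of 4 to 10 tumours, the gap of a highest or lowest tumour to the nearest other was divided by the group's range. The tumour was singled out when this share exceeded Dixon's 95% critical value. In normally distributed values, chance alone would exceed it in about 1 in 20 groups. CPM without logs were used and the pairs below share libraries, so this rate need not hold here. Of 27 pairs of a member and a group, 6 were singled out, all at the high end. They were Myc in Pax8-BPR GEMM 4 (61.7 CPM), Mycn in Pax8-BPR GEMM 2 (100 CPM), Mycl in Ad-BPR allograft 1 (80.5 CPM), Ccne1 in Ad-BPR allograft 3 (17.1 CPM), Ccne1 in Pax8-BPR GEMM 2 (20.7 CPM) and Yap1 in OSE-BPR allograft 5 (343 CPM). Pax8-BPR GEMM 2 was thus high in its group for 2 members. Allograft 3 of OSE-BPR was not singled out for Mycn, although its neighbours Ddx1, Nbas and Fam49a were higher there than in any other tumour.

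For 3 members the difference from normal tissue was not the same for OSE-BPR and ovary as for the oviduct-origin GEMM tumours and oviduct. By the edgeR test of the difference itself, on the log2 scale, it was -2.86 for Mycl, -4.5 for Egfr and -2.47 for Ccne1. For Mycl and Egfr the drop against ovary was called and no difference from oviduct was, whereas for Ccne1 the rise over oviduct was called and no difference from ovary was.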

How the results depend on the processing

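No direction reversed under any alternative run. Between oviduct and ovary, 9191 genes and 8 members were called in the fit of the 6 normal libraries, but 2605 genes and 3 members in the fit of all 32. With the animal as a replicate block the counts were 7971 genes and 7 members, and the block changed no other call of a member than Yap1's. Without normal oviducts 1 and 3, oviduct-origin GEMM tumours against oviduct gave 2597 genes in place of 7463. DESeq2 called 34 genes between allografts and GEMM tumours where edgeR called 0, and limma on log2(TPM + 1) called 2 members in place of 4 for Ovgp1-BPR. Members with a single outlying tumour numbered 2 with a 1.5-fold gap and 1 within one model. The highest neighbour median for Mycl was 0.42 within 500 kb. Over 5 Mb, a width added after seeing the data, it was 0.81 for Mycn and 0.59 for the Yap1 cluster. With each library left out in turn, the lowest and highest counts were as follows. Between oviduct and ovary, 5 to 8 members were called. OSE-BPR GEMM tumours against ovary gave 3114 (without ovary 2) to 4934 genes, and 3220 without OSE-BPR GEMM 3. OSE-BPR against oviduct-origin tumours gave 2695 (without OSE-BPR GEMM 3) to 5663 genes and 1 to 4 members in GEMM, 1 member being left without OSE-BPR GEMM 3, and 2 (without OSE-BPR allograft 3) to 4 members in allografts. The 4-fold rule gave 0 to 1 member, Egfr, in 13 of 26 omissions. Single tumours have no replicate, and arms of 2 to 5 libraries limit what the tests can detect. Members with few reads, such as Mycn in Pax8-BPR GEMM 3 (3 counts), are limited by depth.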
